A study of Mus musculus with 6 samples.

Results

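Described here are 10 genes of the retinoic acid pathway: the retinoic acid receptors Rara, Rarb and Rarg, the retinoid X receptors Rxra and Rxrb, the binding proteins Crabp1 and Crabp2, the enzymes Aldh1a2 and Cyp26b1, and the transporter Stra6. They were chosen by gene name, with the difference in Rarb between the groups already known, and are 10 of the 55421 genes in the count table. Of these, 9 had enough counts for the fit across genes and Aldh1a2 did not. The question was whether other retinoid genes differed together with Rarb.

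The cells were C2C12, an established mouse myoblast line that fuses into myotubes when serum is withdrawn. Stable transfection had given them a GFP plasmid carrying 5 CTG repeats (C2C12-CUG5, the normal group) or 200 CTG repeats (C2C12-CUG200, the DM1 group, a model of myotonic dystrophy type 1), and both groups had been selected with G418. Total RNA was sequenced at differentiation day 4 in 3 libraries per group, with 61707889 to 80957325 counts per library. The study calls the 3 libraries of a group biological replicates, without saying whether they came from separate transfections or cultures, so p-values measure the spread between these libraries. Both transgenic lines carry the GFP plasmid, and no untransfected cells were analysed here. Repeat number cannot be told apart from other differences between these lines, such as those from transfection and selection.

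Retinoic acid is made from vitamin A: retinol enters cells through STRA6, is oxidised to retinaldehyde by retinol dehydrogenases and then to retinoic acid by ALDH1A enzymes, and is broken down by CYP26 enzymes. CRABP2 carries retinoic acid to the nucleus, where receptors of the RAR family, paired with RXR, bind direct repeats of a short motif in DNA. Rarb and Cyp26a1 are textbook retinoic acid targets, and retinoic acid is known to influence myoblast differentiation.

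The consensus motif AGGTCA, its variant AGTTCA, a further variant spelled GGTTCA, and a last one spelled GGGTCA, were paired in every combination, repeated in the same direction with a spacer of 5 bases. The pairs were searched on both strands in RefSeq windows from 250 bases before to 50 after each gene start (GRCm38.p6). Among 9 of the 10 genes found in that table, with 18 windows, only Rarb held such a pair, against 0.0974% of all 32851 windows. No window of these 9 genes held a pair with a spacer of 1 or 2 bases, which 0.222% and 0.268% of all windows held. Cyp26a1, which clears retinoic acid and is not one of the 10, also held a pair with a spacer of 5 bases. Windows were also found for 33 of 41 genes of retinoid metabolism and transport and 26 of 42 responsive genes, the lists used below. In these lists Bco1, a metabolism gene, held a pair with a spacer of 1 base, and no gene held one with a spacer of 2. Rarb and Cyp26a1 are shown because only they, in the set and these lists, held a pair with a spacer of 5 bases. The motifs of each pair are in capitals, 5′ to 3′ on the strand of the gene. The Cyp26a1 pair reads in the opposite direction to the gene.
Rarb, chr14:16575506-16575535, minus strand: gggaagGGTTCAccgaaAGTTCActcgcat
Cyp26a1, chr19:37697770-37697799, plus strand: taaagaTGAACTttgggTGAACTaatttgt
The Rarb pair lies 53 to 37 bases before the RefSeq start, and inside the first exon, in the 5′ UTR, of the GENCODE transcripts Rarb-201 and Rarb-207. A match of letters is a description of the sequence, not a measured binding site.

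Rarb (ENSMUSG00000017491, chr14:16430839-16819156, minus strand), a receptor that is itself switched on by retinoic acid, differed most between the groups among the 9. Its counts were 61, 57 and 29 in the normal group and 511, 316 and 321 in the DM1 group. As CPM, that is counts scaled to library size with TMM factors, its level was 0.726, 0.928 and 0.415 in the normal group and 6.87, 4.44 and 4.83 in the DM1 group. The groups did not overlap, and DM1 replicate 1 was the highest library. The means were 0.69 ± 0.258 and 5.38 ± 1.31 CPM (SD, n = 3), which is 7.81-fold, or 2.96 as a log2 fold change with a standard error (SE) of 0.314. Over 16 alternative fits the log2 fold change ran from 1.55 to 3.22, the low end coming from values with a pseudocount.

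The other receptors were more abundant and differed less. Rara (ENSMUSG00000037992, chr11:98927818-98974942, plus strand) had 34.5, 32.3 and 33.0 CPM in the normal libraries and 40.5, 51.3 and 50.7 CPM in the DM1 libraries, a log2 fold change of 0.51 (SE 0.107). Rarg (chr15:102234938-102257517, minus strand) had 73.6, 76.3 and 73.8 CPM against 78.4, 95.7 and 110 CPM, a log2 fold change of 0.35 (SE 0.119). For both receptors the CPM of the groups did not overlap, with DM1 replicate 1 the lowest of its group, but in the deposited TPM, which is scaled by length and to a fixed total, the groups overlapped. Rarb went the other way, its highest library being DM1 replicate 1.

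The RXR partners were not higher in the DM1 group. Rxra (chr2:27676440-27762957, plus strand) had 18.2, 18.6 and 18.0 CPM in the normal libraries and 15.3, 15.8 and 15.9 CPM in the DM1 libraries, which did not overlap, and its log2 fold change was -0.22 (SE 0.0946). Rxrb (chr17:34031812-34038399, plus strand) overlapped between the groups, at 23.7, 24.3 and 20.5 against 22.2, 20.1 and 23.0 CPM, with a log2 fold change of -0.07 (SE 0.108). Rxrg, the remaining RXR gene, had 0 counts in every library, and 3 counts would have been 0.0357 to 0.0489 CPM.

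**Figure D1:**
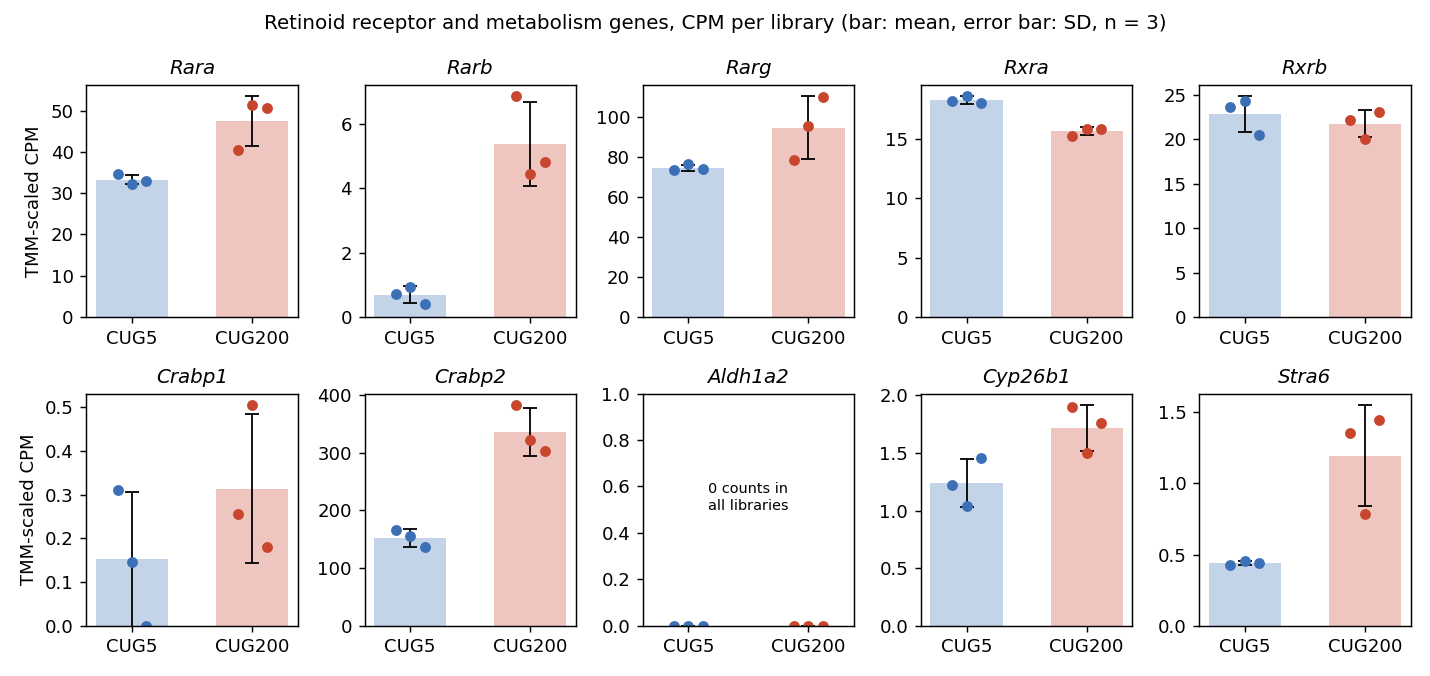
TMM-scaled CPM of the 10 genes in each library (points), with the mean (bar) and SD (error bar, cut at 0 for Crabp1) for 3 C2C12-CUG5 and 3 C2C12-CUG200 libraries; every panel starts at 0 and has its own scale. Rara, Rarb, Rarg, Crabp2, Cyp26b1 and Stra6 have every DM1 library above every normal library, Rxra has the reverse, Rxrb and Crabp1 overlap, and Aldh1a2 is at 0 in all 6 libraries.

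Receptor levels can be set beside each other only per length, in TPM. The summed TPM of Rara, Rarb and Rarg was 79.8, 74.9 and 68.6 in the normal libraries and 73.7, 94.2 and 121 in the DM1 libraries, which overlapped. Rarb made up 0.514%, 0.868% and 0.313% of that sum in the normal libraries and 5.63%, 2.67% and 2.44% in the DM1 libraries. Rarg held most of the sum in both groups, 70.5% ± 1.38 and 68.0% ± 2.49 (SD, n = 3), with Rara at 28.9% ± 1.63 and 28.5% ± 1.70. So Rarb stayed a small part of the receptor message, by TPM, in every library. The summed TPM of Rxra, Rxrb and Rxrg was 25.9 ± 2.26 in the normal group and 23.6 ± 3.80 in the DM1 group.

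Crabp2 (ENSMUSG00000004885, chr3:87948666-87953376, plus strand), the carrier of retinoic acid to the nucleus, was the most abundant of the 10 genes. Its counts were 13985, 9501 and 9473 in the normal group and 28461, 22961 and 20178 in the DM1 group, or 166, 155 and 136 against 383, 322 and 303 CPM. The lowest DM1 library lay above the highest normal library in counts, CPM and TPM. The log2 fold change was 1.14 (SE 0.117), 2.21-fold, and ran from 1.01 to 1.21 over the 16 alternatives. Its relative Crabp1 (chr9:54764748-54773110, plus strand) was close to the detection limit, at 26, 9 and 0 counts against 19, 36 and 12. The groups overlapped, with a log2 fold change of 1.02 (SE 0.992), which ran from 0.456 to 2.11 with 1 library left out.

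Stra6 (ENSMUSG00000032327, chr9:58063788-58153996, plus strand), the receptor that takes up retinol from its carrier in blood, was a low-count gene. Counts of 36, 28 and 31 in the normal group stood against 101, 56 and 96 in the DM1 group, or 0.428, 0.456 and 0.444 against 1.36, 0.786 and 1.44 CPM. All DM1 libraries were above all normal libraries, with replicate 2 the lowest of the DM1 group. The log2 fold change was 1.43 (SE 0.328), 2.70-fold, and from 0.36 to 1.66 over the alternatives.

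Synthesis and breakdown of retinoic acid were represented at low levels. Aldh1a2 (chr9:71215789-71296243, plus strand), the main enzyme making retinoic acid in the embryo, had 0 counts in all 6 libraries, so neither a level nor a difference could be given beyond the limit of 0.0357 to 0.0489 CPM that 3 counts set. Cyp26b1 (chr6:84571414-84593908, minus strand), which breaks retinoic acid down, reached 103, 64 and 102 counts in normal cells and 141, 107 and 117 in DM1 cells. In CPM the groups were narrowly apart, at 1.23, 1.04 and 1.46 against 1.90, 1.5 and 1.76, and in TPM they overlapped. The log2 fold change was 0.47 (SE 0.232).

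**Figure D2:**
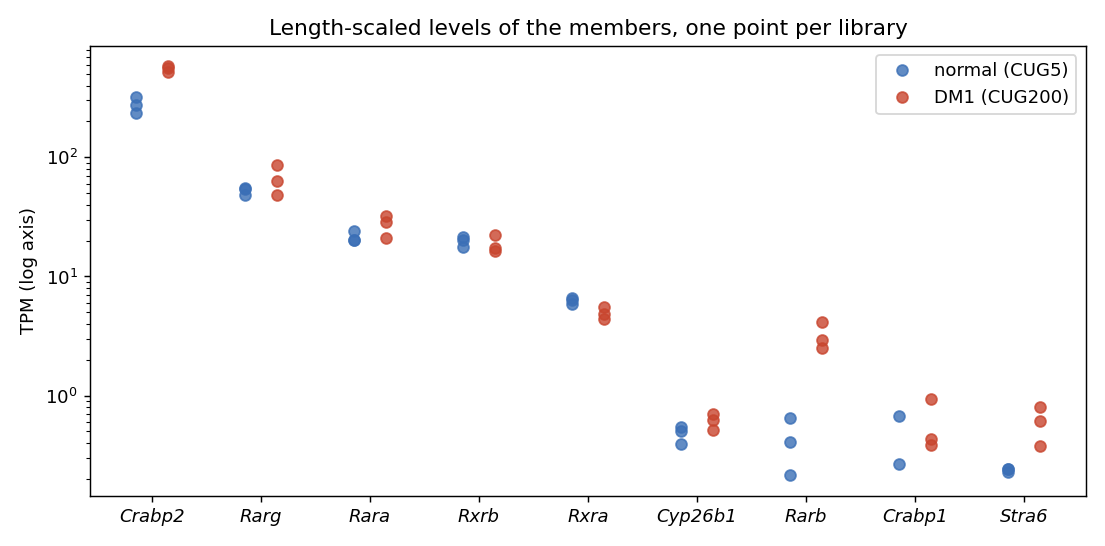
TPM of each gene on a log axis, one point per library, ordered by mean TPM in the normal group; Aldh1a2 and the library of Crabp1 at 0 are not drawn. Crabp2 is highest in both groups, at 276 ± 41.9 and 554 ± 29.7 TPM (SD, n = 3), and Rarb moves from among the lowest genes to above Cyp26b1, Stra6 and Crabp1.

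In TPM the order in the normal group was Crabp2, Rarg, Rara, Rxrb, Rxra, Cyp26b1, Rarb, Crabp1, Stra6 and Aldh1a2. Rara and Rxrb overlapped between libraries there, as did each neighbouring pair from Cyp26b1 to Stra6. In the DM1 group Rarb, at 3.21 ± 0.846 TPM (SD, n = 3), stood just under Rxra, at 4.95 ± 0.573 TPM, and overlapped neither Rxra nor Cyp26b1, while Cyp26b1, Stra6 and Crabp1 overlapped one another.

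Against the cutoffs of the study, a log2 fold change beyond 1 in either direction with an adjusted p under 0.05, 3 of the 9 genes were past both and higher in the DM1 group (Rarb, Crabp2 and Stra6) and 0 were lower (0 also in DESeq2), where 1.36% of all 19005 tested genes were past them and higher and 0.816% lower. By adjusted p alone, 4 were higher (with Rara) and 0 lower (1 at an unadjusted p under 0.05), and DESeq2 gave 5 higher, with Rarg, and 0 lower, where 7.13% of tested genes were higher and 8.73% lower. In CPM, 6 had every DM1 library above every normal library and 1 had the reverse, where 17.9% and 19.3% of tested genes did. Since the genes were chosen with this contrast known, nothing is read from these counts. The same holds for the passes and failures that follow, which only describe how the values moved with the settings. Only Rarb and Crabp2 were past both cutoffs in each of the 16 alternatives. Stra6 fell short of the adjusted p without normal replicate 1, 2 or 3 or DM1 replicate 1, and Rara without normal replicate 1, 2 or 3 or DM1 replicate 2, while Rarg passed it without DM1 replicate 1. The direction of the 9 genes was the same in every alternative that gave a value.

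**Figure D3:**
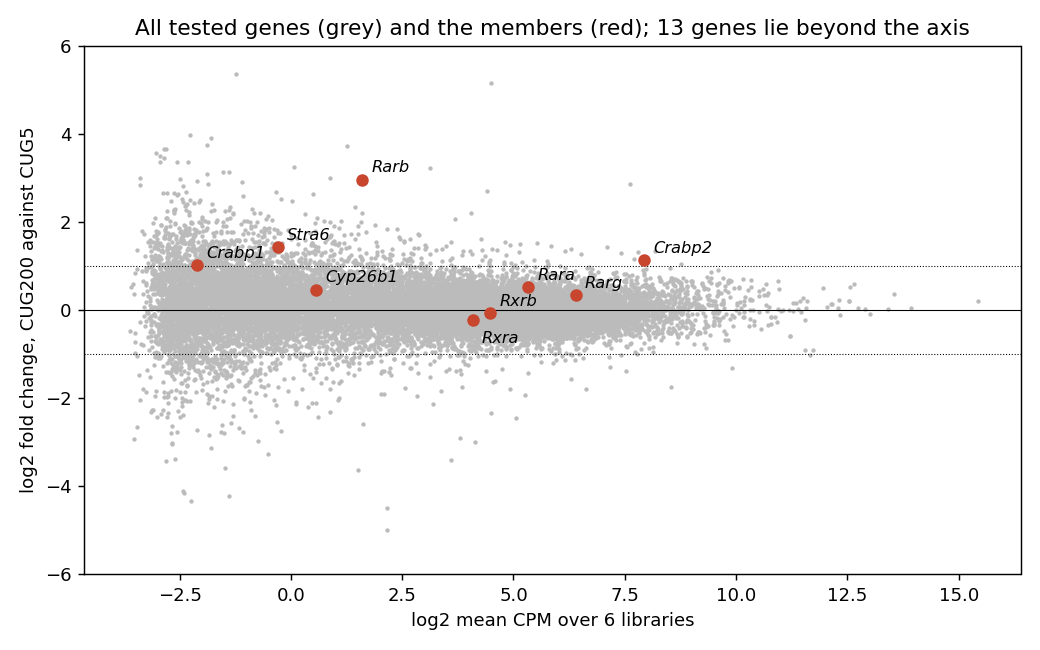
Log2 fold change, C2C12-CUG200 against C2C12-CUG5, over log2 mean CPM for all 19005 tested genes (grey) and the 9 tested genes of the set (red); dotted lines mark a log2 fold change of 1 in either direction and 13 genes lie beyond the axis. Rarb at 2.96, Stra6 at 1.43, Crabp2 at 1.14 and Crabp1 at 1.02 lie above the upper dotted line, and the other receptors lie between the lines.

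The other genes of retinoid metabolism and transport did not show a common direction. Of 41 such genes, 26 could be tested and 7 had 0 counts in every library. With edgeR's quasi-likelihood test and Benjamini-Hochberg adjustment over all tested genes, 2 rose (7.69%, beside 7.13% of all tested genes), 1 fell (3.85%, beside 8.73%) and 23 did not pass, and the median log2 fold change was 0.13, against 0.02 over all tested genes. None of those that passed was past the fold cutoff.

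Among enzymes that make retinaldehyde and retinoic acid, Rdh5, a retinol dehydrogenase, rose from 68.4 ± 7.88 to 96.9 ± 5.41 CPM (SD, n = 3), by 0.50 on the log2 scale (SE 0.102, edgeR adjusted p = 0.0140). Aldh1a3, which makes retinoic acid, had 1.88, 1.56 and 1.72 CPM in the normal libraries and 3.08, 2.54 and 3.25 CPM in the DM1 libraries. It rose by a log2 fold change of 0.78 (SE 0.192, edgeR adjusted p = 0.0277), and all DM1 libraries were above all normal ones. Its adjusted p was 0.0522 to 0.0976 in edgeR when any 1 of the 6 libraries was left out, and 0.0190 to 0.231 over all alternatives. That of Rdh5 was 0.0577 without normal replicate 3 and 0.000440 to 0.181 over all. Aldh1a1, the third gene of that enzyme family, was seen with 6, 4 and 0 counts in normal cells and 0 in each DM1 library and was not tested. Cyp1b1, a cytochrome P450 that can also oxidise retinol, fell from 51.8 ± 2.29 to 35.1 ± 4.46 CPM, which on the log2 scale is -0.56 (SE 0.106, edgeR adjusted p = 0.0109). Its adjusted p was 0.0570 without normal replicate 3, 0.0508 without DM1 replicate 2 and 0.000255 to 0.0570 over all alternatives.

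Genes that turn over or bind retinoids, named whatever their values, did not pass in edgeR on all libraries. Rdh10, the main retinol dehydrogenase of the embryo, had a log2 fold change of -0.35 (SE 0.144, edgeR adjusted p = 0.136, and 0.0270 without DM1 replicate 1, with 0.0270 to 0.343 over all alternatives). Dhrs3, which reduces retinaldehyde back to retinol and is induced by retinoic acid, had 0.42 (SE 0.137, edgeR adjusted p = 0.0717), and it passed in DESeq2 (0.0385) and without DM1 replicate 1 (0.0215), with 0.0215 to 0.332 over all alternatives. Fabp5, which can carry retinoic acid to another receptor, had 0.18 (SE 0.125, edgeR adjusted p = 0.379), and 0.0745 to 0.281 with 1 library left out. Lrat, which stores retinol as esters, had 0 counts throughout. The largest fitted difference of the list belonged to Rbp4, the retinol carrier, chosen here after its values were seen: 9, 0 and 0 counts against 20, 19 and 15, with an edgeR adjusted p of 0.143. Without normal replicate 1, which leaves the normal group of Rbp4 at 0 counts, it passed (0.0483).

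Cyp26a1 and Cyp26c1, the relatives of Cyp26b1, did not follow Rarb. Cyp26a1, whose start holds the direct repeat printed above, reached 47, 64 and 69 counts in normal cells and 48, 24 and 47 in DM1 cells, or 0.559, 1.04 and 0.988 against 0.646, 0.337 and 0.707 CPM. The groups overlapped, with a log2 fold change of -0.61 (SE 0.401, edgeR adjusted p = 0.351), and it lay between -0.85 and -0.31 over the alternatives. Cyp26c1 had a log2 fold change of -0.78 (SE 0.511, edgeR adjusted p = 0.352) on 11 to 44 counts per library. With 1 library left out its log2 fold change lay between -1.36 and -0.49.

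Of 42 genes listed as responsive to retinoic acid, 27 could be tested and 9 had 0 counts throughout. This list, like that of metabolism and transport, holds no gene of the set, so Rarb, itself a retinoic acid target, is outside these counts. In edgeR's quasi-likelihood test 2 rose and 2 fell (7.41% each, beside 7.13% and 8.73% of all tested genes) and 23 did not pass, with a median log2 fold change of 0.03. Nr2f1, an orphan nuclear receptor induced by retinoic acid, rose from 10.9, 12.7 and 11.7 to 15.5, 18.2 and 22.0 CPM, by 0.66 on the log2 scale (SE 0.145, edgeR adjusted p = 0.0186). Bhlhe40, a transcription repressor, rose by 0.41 on the log2 scale (SE 0.107, edgeR adjusted p = 0.0337). Lamb1, a laminin chain, fell from 113, 98.3 and 104 to 74.3, 71.0 and 78.7 CPM, on the log2 scale by -0.49 (SE 0.0856, edgeR adjusted p = 0.00823), and Nrip1, a receptor corepressor, by -0.56 (SE 0.144, edgeR adjusted p = 0.0330). Of these 4, only Lamb1 passed in every alternative (adjusted p 0.000129 to 0.0466). Nr2f1 (0.000709 to 0.0994) did not pass without normal replicate 1 (0.0754) or 3 (0.0701) or DM1 replicate 2 (0.0618). Bhlhe40 (0.00493 to 0.303) did not pass without normal replicate 1 (0.0922), 2 (0.112) or 3 (0.118) or DM1 replicate 2 (0.111), and Nrip1 (0.00361 to 0.118) did not pass without any 1 library other than DM1 replicate 3 (0.0743 to 0.118). The lowest fitted value of the list was that of Mdk, a growth factor chosen here after its values were seen, at a log2 fold change of -1.20 (SE 0.36, edgeR adjusted p = 0.0539). Mdk was past both cutoffs in DESeq2 (adjusted p 0.0431), with a replicate block (-1.27, adjusted p 0.0471), with at least 10 counts in every library (0.0428) and with counts divided by 4 (0.0369), and past the adjusted p alone in limma on log2(TPM + 1) (0.0407).

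Both lists together hold 79 genes, of which 4 share a place in both. Of the 50 that could be tested, 4 rose (8%), 3 fell (6%) and 43 did not pass, shares of calls near the 7.13% and 8.73% of all tested genes. None was past both cutoffs in edgeR as fitted on all libraries, although Mdk was in 4 alternatives and Rbp4 without normal replicate 1, and the median log2 fold change was 0.05.

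**Figure D4:**
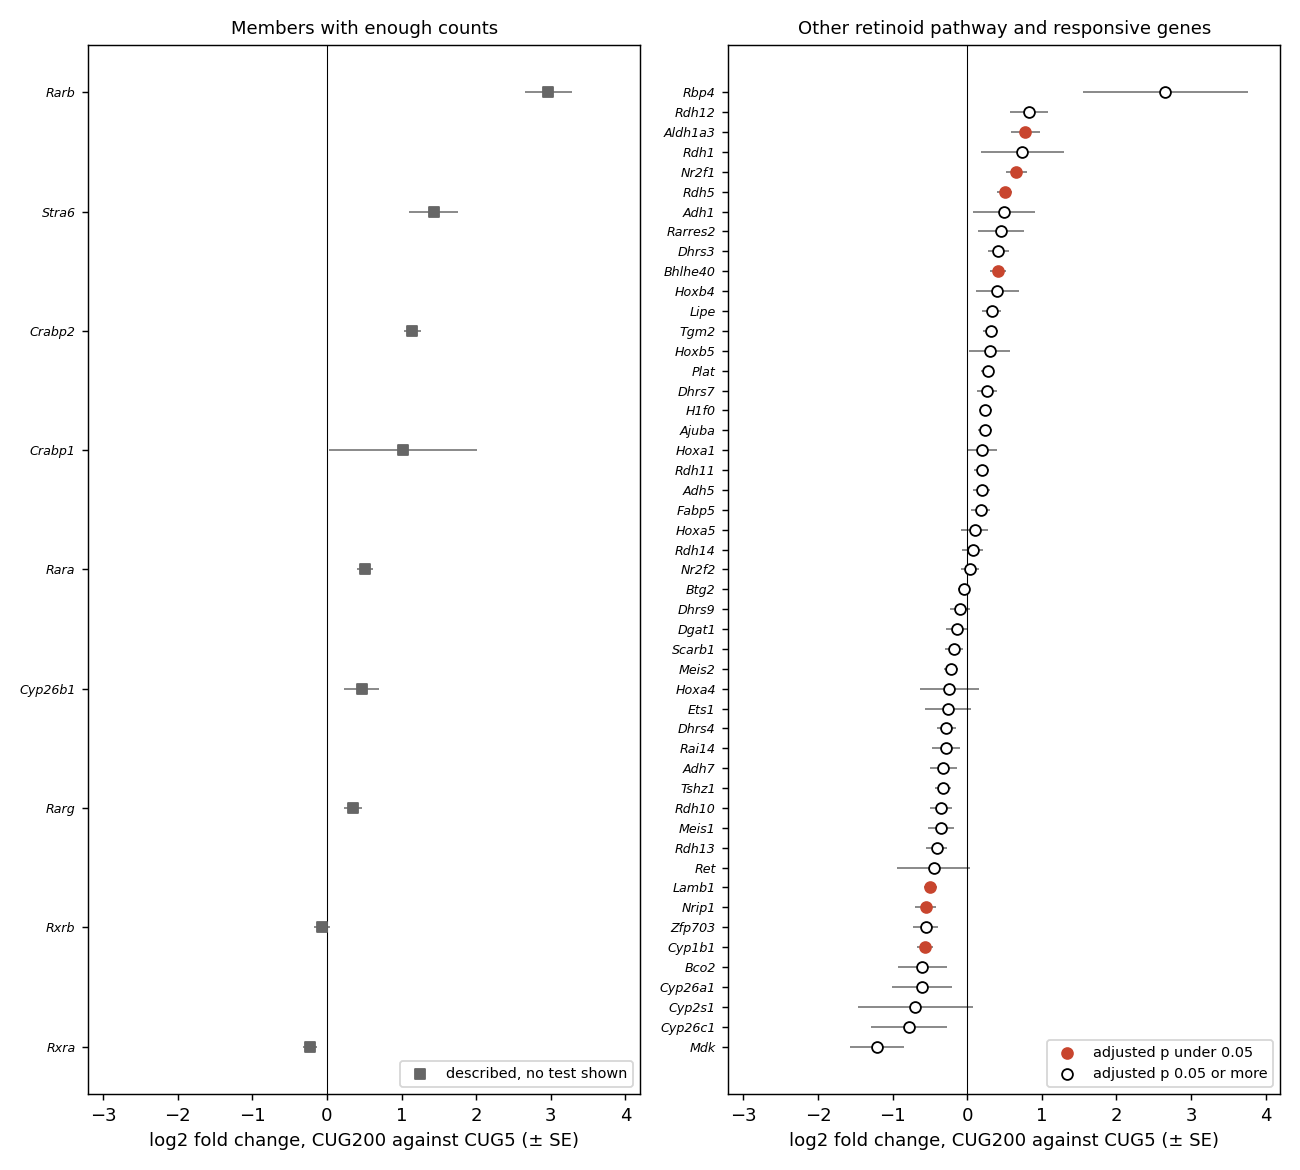
Log2 fold change with SE for the 9 tested genes of the set (left, squares, described without a test) and for 49 of the 50 tested genes of retinoid metabolism, transport and response (right), where filled points have an edgeR adjusted p under 0.05. Filled points lie on both sides of 0, 4 to the right and 3 to the left, all within 1 of it.

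Among 26 genes listed as receptor coregulators, all tested, 0 rose in edgeR and 4 fell (15.4%), beside 7.13% and 8.73% of all tested genes. Also 0 rose at an unadjusted p under 0.05 and 0 in DESeq2. The list also holds the orphan receptors Nr2c1, Nr2c2 and Nr2f6, of which Nr2c1 is among the 4. The median log2 fold change was -0.15. Ncoa1, a coactivator of nuclear receptors, fell from 19.9, 20.3 and 20.2 to 13.6, 12.3 and 13.7 CPM, on the log2 scale by -0.61 (SE 0.1, edgeR adjusted p = 0.00683). Nr2c1, an orphan receptor that competes for direct repeats, fell from 16.6, 17.6 and 18.7 to 10.1, 11.4 and 11.4 CPM, on the log2 scale by -0.68 (SE 0.111, edgeR adjusted p = 0.00658). Tbl1xr1, of the corepressor complex, fell by a log2 fold change of -0.58 (SE 0.131, edgeR adjusted p = 0.0199), and Nrip1 was given above. Nr2c1 passed in all 16 alternatives (adjusted p 2.73e-05 to 0.0398) and Ncoa1 in all that used counts (4.82e-05 to 0.131 over all). Tbl1xr1 (0.00101 to 0.0793) did not pass without normal replicate 1 (0.0656) or 3 (0.0793) or DM1 replicate 1 (0.0597) or 2 (0.0588). The count of genes on this list that fell was 2 without normal replicate 1 or 3 or DM1 replicate 1 or 2, and 8 without DM1 replicate 3.

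Of 13 receptors that pair with RXR, 9 could be tested, and 1 rose, where 7.13% of all tested genes did. This was Thra, a thyroid hormone receptor, from 30.7, 33.4 and 33.5 to 40.4, 45.6 and 48.7 CPM (log2 fold change 0.47, SE 0.0965, edgeR adjusted p = 0.0150). It did not pass without normal replicate 1 (0.0662), 2 (0.0527) or 3 (0.0565) or DM1 replicate 2 (0.0633), with 0.00122 to 0.174 over all alternatives. None fell in edgeR (0 at an unadjusted p under 0.05, 0 in DESeq2), where 8.73% of all tested genes did. Without normal replicate 1, 1 of these receptors fell.

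None of the tested genes around Rarb on chromosome 14 rose past edgeR's test on all libraries, and Rpl15 and Nkiras1 did in some alternatives. Top2b, a DNA topoisomerase on the opposite strand, overlaps the end of Rarb and shares 1793 of the 5265 exonic bases of Rarb. Top2b had 121, 132 and 149 CPM in the normal libraries and 105, 107 and 76.3 CPM in the DM1 libraries, a log2 fold change of -0.48 (SE 0.141, edgeR adjusted p = 0.0520, and 0.0104 to 0.192 over the alternatives). Whether counting used strand is not stated, so reads of Rarb and of Top2b in the shared bases cannot be told apart. Gm48162, also on the opposite strand, shares 227 bases with Rarb and had 0 counts throughout. Farther off, Ngly1, at a gap of 118913 bases, had a log2 fold change of 0.17 (SE 0.109, edgeR adjusted p = 0.334) and Gm47798 had 0.10 (SE 0.143, edgeR adjusted p = 0.682), both turning slightly negative in TPM.

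On the other side the nearest tested genes were far off, at gaps of 1384898 (Nr1d2), 1448667 (Rpl15) and 1451980 bases (Nkiras1). Thrb, another thyroid hormone receptor, lies between Rarb and Nr1d2 and was not tested, with 8, 0 and 4 counts against 7, 0 and 0. Nr1d2, a circadian repressor of the same receptor superfamily, fell by a log2 fold change of -0.30 (SE 0.0871, edgeR adjusted p = 0.0478), which ranged from 0.0356 to 0.162 and was above 0.05 without any 1 of the 6 libraries (0.0563 to 0.162) and with a replicate block (0.0540). Rpl15 had 0.48 (SE 0.16, edgeR adjusted p = 0.0779, and 0.0203 with a replicate block), and Nkiras1 had 0.52 (SE 0.216, edgeR adjusted p = 0.147). Rpl15 also passed in DESeq2 (0.0135) and without DM1 replicate 3 (0.0348), with 0.0135 to 0.215 over all alternatives. Nkiras1 passed in DESeq2 (0.04996) and without normal replicate 3 (0.0485), with 0.0485 to 0.617 over all.

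The tested genes outside the set whose log2(CPM + 0.5) followed that of Rarb most closely over the 6 libraries were Tmem176b (Pearson r = 0.999), Il1rl1, the receptor of interleukin 33 (r = 0.997), and Pafah1b3 (r = 0.996). Of the set, Crabp2 had r = 0.992 and Stra6 had r = 0.923, while Rxra had r = -0.960. These values mostly describe the gap between 2 groups that all 6 points share. Il1rl1 went from 1.94, 2.38 and 1.47 to 6.32, 5.22 and 5.41 CPM, so its log2 fold change was 1.55 beside 2.96 for Rarb.

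The cells' muscle markers also differed between the groups. Of 12 myotube markers 9 fell in edgeR's test, where 8.73% of all tested genes fell, among them Myh3, embryonic myosin, with a log2 fold change of -1.32, and Myog, a myogenic factor, with -0.65, and their summed TPM was 4031 to 4438 in the normal libraries and 2339 to 3177 in the DM1 libraries. Mymx, a fusion protein on the same list, had every DM1 library above every normal library in CPM, with a log2 fold change of 0.23 (SE 0.0748, edgeR adjusted p = 0.0732). All 5 myoblast line markers were present and fell (summed TPM 2230 to 2385 against 1333 to 1827), where 8.73% of all tested genes fell. Myog is on both this list and the myotube list, so the counts and sums of these lists share it. Of 8 reserve myoblast markers Cd34 rose (log2 fold change 0.97) and Heyl and Hes1 fell, where 7.13% and 8.73% of all tested genes did. The summed TPM of these 8 was 181 to 200 against 169 to 208. In these bulk samples fewer cells of a type and less RNA per cell cannot be told apart. The part of these marker differences in the levels of Rarb, Crabp2 and Stra6 was not tested.

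Of 7 fibroblast and adipogenic markers 4 were tested and 1 rose, where 7.13% of all tested genes did. This was Dpt, a matrix protein of fibroblasts (log2 fold change 1.08). Most of the summed TPM of the list was Ly6a, a surface protein, at 252 to 726 TPM in the normal libraries and 286 to 744 TPM in the DM1 libraries (log2 fold change 0.22, SE 0.516, edgeR adjusted p = 0.828). Adipoq and Cfd, which define fat cells, were at 0 in every library, and the summed TPM of the list was 289 to 760 against 346 to 801. Of 8 immune and endothelial markers 2 were tested and 1, Tek, fell, where 8.73% of all tested genes did, Ptprc and Adgre1 were at 0 throughout, and the summed TPM was 8.23 to 9.27 against 5.15 to 8.89. The part of cells with Dpt or Ly6a in the levels of Crabp2 and Stra6 was not tested.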

How the data were processed

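The authors deposited raw counts per gene for 6 libraries, and per library the coverage, FPKM and TPM of each gene. Per the labels and the submitters' processing notes, reads were trimmed with Trim Galore, aligned to GRCm38 with HISAT2 and quantified with StringTie. Counts were close to the deposited coverage times length divided by 75, within 1 count for 99.8 to 99.9% of genes with a single transcript. Strand settings are not given in the sources used here.

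Counts were fitted in edgeR 4.0.16 (R 4.3.3) with TMM scaling, a filter on low counts (filterByExpr) and the robust quasi-likelihood test, adjusted over 19005 genes, and 3 counts were taken as the floor. DESeq2 1.42.0 and limma 3.58.1 (log2 of the deposited TPM plus 1 or 0.1) were alternatives, and so were other scalings, filters, a replicate block and leaving out each library. The fit was tested on simulated data. The floor covers counting error only, and each SE and SD the spread between libraries. The SE of a log2 fold change was worked back from the quasi-likelihood test, as its absolute value over the square root of the F statistic. It therefore draws on dispersion shared across genes and holds the same information as that test.

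The genes of the set and all lists were chosen with earlier results of these data known. Named were the 10 genes, 10 retinoid genes whatever their values (1 of them is not reported here), up to 5 genes per direction with the smallest p in each list, the 3 genes most like Rarb, and the 3 nearest tested genes on each side of it. Sequences are from RefSeq (GRCm38.p6), where Crabp2 was not matched.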

Additional observations from a re-analysis of the deposited data

How the results depend on the processing

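Each group has 3 libraries, and Stra6, Crabp1 and Cyp26b1 rest on few counts. TPM shifted the median log2 fold change of all genes by -0.109 (pseudocount 0.1) from the main value. A sum over same-strand overlaps gave no value, as no gene of the set shares exonic bases on its strand. The cause of each change below was not tested.

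Genes past both cutoffs numbered 414, with 140 for limma on log2(TPM + 1) and 273 to 438 when 1 library was left out (273 without normal replicate 3). Genes with an adjusted p under 0.05 numbered 3016, with 1243 (TPM + 1) and 1284 (TPM + 0.1), and 1028 to 3789 with 1 library left out. Of the set, 4 were higher by adjusted p, 2 under both TPM fits and 2 to 4 with 1 library left out, and 3 were past both cutoffs, 2 to 3 with 1 left out. Genes of the coregulator list that fell numbered 4, 2 under both TPM fits and 2 to 8 with 1 left out.

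In the metabolism list 2 rose, 3 in DESeq2, with at least 10 counts in every library and with counts divided by 4, 0 under both TPM fits and 0 to 2 with 1 library left out, and 1 fell, 0 to 3 with 1 left out. In the responsive list 2 rose, 4 in DESeq2, 1 with library sizes alone, 4 with counts divided by 4, 0 under both TPM fits and 0 to 3 with 1 left out. There 2 fell, 4 in DESeq2, 4 with at least 10 counts in every library, 4 with counts divided by 4, 1 for TPM + 0.1 and 1 to 5 with 1 left out. Among RXR partners 1 rose, 0 under both TPM fits and 0 to 1 with 1 left out, and 0 fell, 0 to 1 with 1 left out. Gm47798 reversed to -0.013 (TPM + 1) and -0.020 (TPM + 0.1), and Ngly1 to -0.018 and -0.019.

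With the replicate number as a block, 2823 genes had an adjusted p under 0.05 and 373 were past both cutoffs. Same-numbered libraries correlated at 0.113, 0.0518 and 0.0538 in their deviations from the group means, so the numbers were not taken to pair them, although each normal library correlated best with the DM1 library of its own number. The replicate block left the set at 4 higher and 3 past both cutoffs, and the responsive list at 3 that fell.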
